A study of Mus musculus with 15 samples.

Results

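Het empty, 3 samples of a mouse hematopoietic progenitor line heterozygous for Ddx41, was compared with WT empty, 3 samples of a line with both copies, all carrying the same retrovirus without an insert. These are 6 of the 15 samples of the series, chosen by their titles; the other 9 are the heterozygous line with a vector for DDX41, the G173R form or the R525H form. Per the labels, both lines come from fetal liver and were immortalized with Hoxb8 (genotypes hi-Ddx41+/+ and hi-Ddx41+/-), grown with β-estradiol, exposed to retrovirus for 2 days and isolated by FACS, and total RNA was sequenced with a stranded kit that reduces ribosomal RNA. Each genotype is 1 line, so an effect of the missing Ddx41 copy and any other difference between the lines cannot be told apart. The labels do not say whether a group's samples grew as separate cultures. A p-value here covers only the spread among samples within groups, which may be technical. That spread was estimated over all 15 samples, with the replicate number of the titles in the model. The names of the deposited files of the heterozygous groups carry other group codes than the sample titles, and groups follow the titles.

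In lines of this kind Hoxb8, a homeobox factor, is kept active by estrogen and holds myeloid progenitors in a dividing, immature state, which they leave when estrogen is withdrawn. DDX41 is a DEAD-box helicase that acts in RNA splicing and in the response to nucleic acids, and inherited variants of its human form predispose to myeloid neoplasms. A progenitor reads its surroundings through surface receptors and adhesion molecules, passes the signal on through kinases, lipid enzymes and small GTPases, and ends it at transcription factors, so these groups of genes and the metabolism that feeds them are taken in that order.

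The 6 libraries held 30947480 to 37109795 expected counts. Levels are given in CPM, counts scaled to a common library size, for libraries 1, 2 and 3 of each group in that order. Where 3 values are set against 3 others, WT empty comes first. Fold changes are Het empty against WT empty on the log2 scale, with adjusted p-values from edgeR's quasi-likelihood test with the replicate number in the model. Progenitor markers were abundant in both groups, with a summed level of 4350 to 5130 CPM in WT empty and 4330 to 5690 CPM in Het empty over 10 genes. Of these 10 genes 2 rose and 1 fell (1 and 1 without the replicate number), so the similar sums do not mean that each marker was unchanged. Markers of other cells were at or near 0: of 8 hepatocyte markers 6 had no count and the sum was at most 1.46 CPM, of 8 endothelial and stromal markers 4 had no count (at most 0.731 CPM), and of 8 T and NK cell markers 3 had no count (at most 0.909 CPM). Erythroid markers summed to 0.768 to 2.83 CPM. Of 8 B cell markers Ebf1 made up most of a sum of 46 to 61 CPM. Mast cell markers summed to 49.5 to 97.5 CPM in WT empty and 19.4 to 22.7 CPM in Het empty, with 5 of 8 at 0 in all 6 libraries. Macrophage markers summed to 210 to 348 and 122 to 164 CPM, nearly all of it Adgre1, with 5 of 8 at 0. Neutrophil markers summed to 283 to 364 and 357 to 564 CPM, and these ranges overlapped; Ctsg and Prtn3 made up most of the sum. Of the 8 neutrophil markers 4 rose (Elane, Prtn3, S100a8 and S100a9; 1 without the replicate number), none fell and the median log2 fold change was 1.46. Elane, a protease of granules, was at 3.63, 2.41 and 1.19 against 14.8, 14.2 and 5.92 CPM. What these lists contribute to the results was not tested. In bulk RNA fewer cells of a type and less RNA per cell cannot be told apart.

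Ddx41 itself measured 58.8, 63.5 and 55.6 CPM in WT empty and 29.4, 33 and 28.6 CPM in Het empty. Ddx41 had a log2 fold change of -0.97 (SE 0.06, adjusted p = 9.48e-08). All 3 heterozygous libraries lay below all 3 wild-type libraries, and the means were 59.3 ± 3.94 CPM in WT empty and 30.3 ± 2.34 CPM in Het empty (SD, n = 3).

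Between the lines 1352 of 14548 genes changed, 9.29 percent of those tested, with 661 higher (4.54 percent) and 691 lower (4.75 percent) in Het empty. Without the replicate number in the model 532 were called (3.66 percent), 277 higher (1.9 percent) and 255 lower (1.75 percent). The libraries of the groups did not overlap in 17.2 percent of the genes tested, with all of Het empty higher in 8.33 percent and lower in 8.82 percent. Surface receptors were the group that fell most one-sidedly: of 237 tested, 15 rose and 54 fell (8 and 27 without the replicate number). Adhesion and matrix genes had 18 rises and 29 falls among 160, transcription factors 17 and 14 among 180, and signalling genes 47 and 56 among 527. Metabolic genes leaned the other way, with 63 rises and 29 falls among 587. Without the replicate number these became 8 and 8, 9 and 5, 27 and 12, and 17 and 13. With it, the called shares were 29.1 percent for receptors, 29.4 percent for adhesion and 17.2 percent for transcription factors. They were 19.5 percent for signalling and 15.7 percent for metabolism, beside 9.29 percent of all genes. The lists were chosen with earlier results of these data known, so shares above that of all genes may follow from the choice of members. Metabolic falls were near the share of all genes (4.75 percent). The median log2 fold change was -0.11 for receptors, -0.03 for adhesion, 0.04 for transcription factors, -0.02 for signalling and 0.05 for metabolism, beside -0.000877 for all genes tested.

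The balance of rises and falls depended in part on single libraries. Receptor counts moved by less than 1.5 times when any of the 6 libraries was left out (11 to 18 rises, 45 to 52 falls). Adhesion falls numbered 17 without WT empty 2, 19 without Het empty 1, 18 without Het empty 2 and 19 without Het empty 3. Falls of transcription factors dropped to 9 without WT empty 1, WT empty 2, Het empty 1 or Het empty 3. Falls of signalling genes were 31 without WT empty 1, 33 without WT empty 2 and 29 without Het empty 2. Metabolic rises were 41 without WT empty 1, and metabolic falls 18 without WT empty 2 and 19 without Het empty 2.

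**Figure D1:**
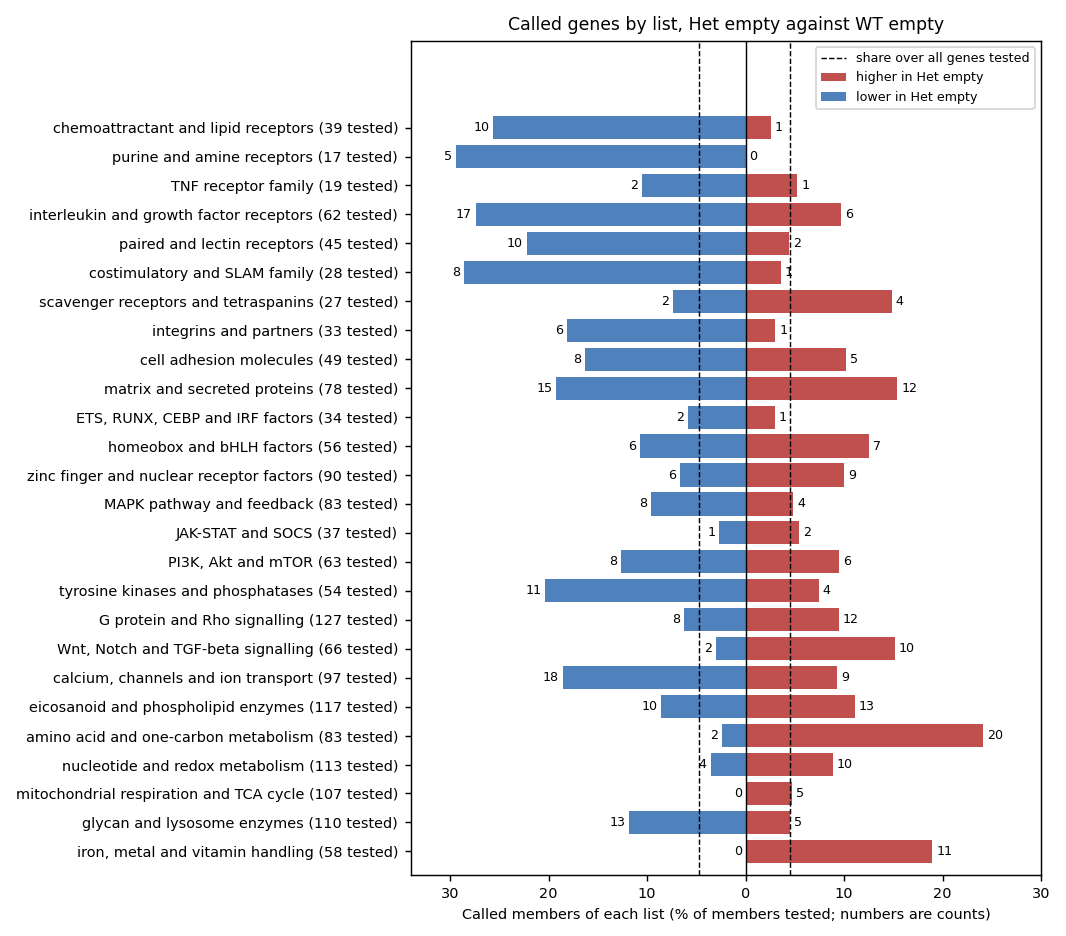
Called genes of 26 lists, as a percentage of the members tested (x axis), lower in Het empty to the left and higher to the right, with the number of genes at each bar. Dashed lines give the share over all 14548 genes tested, 4.75 percent lower and 4.54 percent higher; the 7 receptor lists all extend past it on the left, and amino acid and one-carbon metabolism extends furthest to the right with 20 rises.

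Receptors that guide migration fell more often than they rose. Of 39 receptors for chemokines, complement and lipid mediators 10 fell and 1 rose (6 and 0 without the replicate number), with a median log2 fold change of -0.19; the 1 rise became 2 without WT empty 2 or WT empty 3. Gpr174, a receptor for lysophosphatidylserine, measured 82.3, 78.9 and 65.8 CPM in WT empty and 26.2, 22.4 and 16.1 CPM in Het empty. All heterozygous libraries lay far below the wild-type ones, a level 3.55 times lower (log2 fold change -1.83, SE 0.08, adjusted p = 9.4e-10). Ccr2, the receptor that draws monocytes to CCL2, measured 214, 220.5 and 176 CPM in WT empty and 88.7, 94.2 and 68.3 CPM in Het empty. Ccr2 had a log2 fold change of -1.29 (SE 0.08, adjusted p = 5.89e-08). In both genes library 3 was the lowest of its own group, and the groups did not overlap. For these genes and those given with an SE below, the naming rule required groups without overlap, so this trait follows from the choice.

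S1pr1, a sphingosine 1-phosphate receptor that directs exit from tissues, measured 35.7, 35.6 and 28.8 CPM in WT empty and 15.1, 17.1 and 18.1 CPM in Het empty, 2 times lower. The next genes were picked after their values were seen, as were others given without a p-value or with a call that depends on the replicate number. Lpar6, a receptor for lysophosphatidic acid, fell by 0.43 on the log2 scale and Ptger2, a prostaglandin E2 receptor, by 0.55; Gpr171 was at 5.68, 5.32 and 3.97 CPM in WT empty and 1.73, 2.22 and 1.3 CPM in Het empty. The 1 rise of this list was Ltb4r1, the leukotriene B4 receptor, at 2.39, 3.77 and 2.75 CPM against 6.33, 6.83 and 4.09 CPM, and its call was lost without the replicate number (adjusted p = 0.0841).

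In the list of purine and amine receptors 5 of 17 fell and none rose, and 4 fell without the replicate number. P2ry1, an ADP receptor, measured 7, 6.23 and 5.3 CPM in WT empty and 2.56, 3 and 2.51 CPM in Het empty. P2ry1 had a log2 fold change of -1.19 (SE 0.18, adjusted p = 0.000377). P2rx4, an ATP-gated channel, measured 42.6, 47.9 and 41.2 CPM in WT empty and 34.7, 32.6 and 31.9 CPM in Het empty. P2rx4 had a log2 fold change of -0.41 (SE 0.09, adjusted p = 0.00695). Its groups were close but did not overlap, and the call was lost without WT empty 2 (adjusted p = 0.0525). P2ry10, counted here only by its purine receptor name, fell from 3.01, 4.9 and 2.34 to 0.128, 0.202 and 0.062 CPM. P2rx5 fell from 3.57, 4.43 and 3.3 to 0.608, 0.634 and 0.217 CPM. P2rx7, the ATP-gated channel of inflammasome activation, measured 10.8, 13.5 and 15.2 against 5.09, 6.11 and 8.59 CPM, and lost its call without the replicate number (adjusted p = 0.15).

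Neuropilins and plexins form receptors for semaphorins, and the pair of neuropilins changed in opposite directions. Nrp2 measured 3.99, 3.21 and 2.98 CPM in WT empty and 26.7, 24.9 and 22.2 CPM in Het empty, 7.26 times higher. Nrp2 had a log2 fold change of 2.86 (SE 0.08, adjusted p = 8.22e-12). Nrp1, its paralogue, measured 165, 183 and 142 CPM in WT empty and 81.6, 77.4 and 90 CPM in Het empty. Nrp1 had a log2 fold change of -0.97 (SE 0.09, adjusted p = 3.09e-06). Thus 1 neuropilin rose and the other fell, each without overlap between the groups. Plxnb2, a plexin, measured 119, 139 and 151 CPM in WT empty and 61.1, 64.5 and 82 CPM in Het empty (log2 fold change -0.98, SE 0.06, adjusted p = 3.64e-08), and Plxnc1, another plexin, fell from 32.1, 38.5 and 35.3 to 11.7, 11.4 and 21.3 CPM, a call lost without the replicate number (adjusted p = 0.084).

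The promoters of the neuropilin pair and of Gpr174 are shown because Nrp1 and Nrp2 moved in opposite directions and Gpr174 had the smallest p of the falling receptors of its list. Each is the 250 bases before the start of transcription on the plus strand in RefSeq (GRCm38.p6), Nrp1 at chr8:128358823-128359072, Nrp2 at chr1:62703067-62703316 and Gpr174 at chrX:107284096-107284345. Capitals mark matches on either strand to 5 motifs. The CCAAT box was searched as CCAAT and the GC box as GGGCGG. An ETS core was searched as GGAAGT, and a GATA sequence was searched for with the letters AGATAA. For a TATA sequence the letters were TATAAA.
Nrp1: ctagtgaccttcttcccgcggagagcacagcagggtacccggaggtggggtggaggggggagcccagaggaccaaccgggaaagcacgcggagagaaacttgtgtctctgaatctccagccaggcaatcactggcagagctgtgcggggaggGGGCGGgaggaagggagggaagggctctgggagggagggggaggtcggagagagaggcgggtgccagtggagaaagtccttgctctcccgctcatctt
Nrp2: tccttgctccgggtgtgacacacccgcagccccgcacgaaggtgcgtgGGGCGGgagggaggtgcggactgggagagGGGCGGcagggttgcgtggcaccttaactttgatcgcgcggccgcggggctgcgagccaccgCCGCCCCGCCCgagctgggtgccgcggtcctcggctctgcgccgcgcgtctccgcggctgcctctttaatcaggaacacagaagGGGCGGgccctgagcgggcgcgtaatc
Gpr174: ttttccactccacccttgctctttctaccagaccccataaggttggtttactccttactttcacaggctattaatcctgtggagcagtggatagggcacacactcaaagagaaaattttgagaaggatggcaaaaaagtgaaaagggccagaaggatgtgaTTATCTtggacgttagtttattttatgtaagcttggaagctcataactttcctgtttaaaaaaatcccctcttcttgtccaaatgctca
The Nrp2 window held 5 GC boxes, of which 2 overlap by 1 base, and 32 CpG dinucleotides, and that of Nrp1 held 1 GC box and 11 CpG. The Gpr174 window held 1 CpG, 1 GATA sequence and none of the other letters, against a median of 6 CpG over all 32851 windows. A GC box occurred in 32.7 percent of all windows and a GATA sequence in 9.99 percent.

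Other receptors for growth factors and interleukins also fell more often than they rose. Of 62 tested, 17 fell and 6 rose (6 and 3 without the replicate number), with a median log2 fold change of -0.14. Il1rl1, the receptor for interleukin 33, which mast cells carry, measured 26.7, 34.4 and 20.9 CPM in WT empty and 5.44, 5.28 and 9.33 CPM in Het empty (log2 -2.16), beside the lower mast cell marker sum given above. Tyro3, a kinase that binds the same ligands as Axl and Mertk, fell by 1.58 on the log2 scale, and Pdgfrb and Il15ra by 0.44 and 0.57. Il7r, the interleukin 7 receptor, was at 5.79, 7.84 and 16.9 CPM against 2.33, 2.05 and 3.35 CPM with library 3 the highest of both groups; without the replicate number its call was lost (adjusted p = 0.11). Csf3r, the G-CSF receptor, and Il2rg, the common gamma chain, fell by 0.30 and 0.36 on the log2 scale, calls lost without the replicate number (adjusted p = 0.191 and 0.118).

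Among the rises, Epha2, a receptor tyrosine kinase for ephrins, measured 0.619, 0.554 and 0.571 CPM in WT empty and 2.24, 3.03 and 4.37 CPM in Het empty. Epha2 had a log2 fold change of 2.43 (SE 0.25, adjusted p = 9.75e-06). The wild-type libraries were all under 1 CPM, and all heterozygous libraries lay above them. Il1rap, the chain shared by receptors of the interleukin 1 family, measured 4.08, 3.71 and 3.38 against 6.78, 8.82 and 7.88 CPM (log2 1.07), so this shared chain rose while the Il1rl1 chain it pairs with fell.

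In the tumour necrosis factor receptor family 2 of 19 fell and 1 rose. Fas, the death receptor, measured 10.7, 13 and 11.9 CPM in WT empty and 5.82, 6.92 and 3.94 CPM in Het empty. Fas had a log2 fold change of -1.08 (SE 0.22, adjusted p = 0.00464). Tnfrsf1b, the second receptor for tumour necrosis factor, measured 52.1, 58.3 and 54.3 CPM in WT empty and 75.5, 72.8 and 61.5 CPM in Het empty. Tnfrsf1b had a log2 fold change of 0.35 (SE 0.08, adjusted p = 0.00809). The other fall was Tnfrsf13c, the receptor for BAFF, at 5.4, 6.18 and 10.4 against 2.37, 2.94 and 4.93 CPM (adjusted p = 0.205 without the replicate number). The groups did not overlap for Fas or Tnfrsf1b, but the rise of Tnfrsf1b was not called without WT empty 1 (adjusted p = 0.0568) or Het empty 1 (0.0505), and there no member of the list rose; without Het empty 3 the list had 2 rises.

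Paired receptors, which combine activating and inhibitory forms, fell in 10 of 45 cases and rose in 2 (6 and 1 without the replicate number; median -0.08 on the log2 scale). Tyrobp, the adaptor DAP12 through which many activating receptors signal, measured 69.3, 84.2 and 71.9 CPM in WT empty and 44.4, 48.5 and 37.7 CPM in Het empty. Tyrobp had a log2 fold change of -0.80 (SE 0.10, adjusted p = 6.54e-05). Clec5a, a lectin that signals through this adaptor, measured 24, 23.5 and 20.7 CPM in WT empty and 31.8, 34.4 and 34.2 CPM in Het empty. Clec5a had a log2 fold change of 0.55 (SE 0.09, adjusted p = 0.000521). The adaptor and this partner thus changed in opposite directions. Trem3, also a receptor that uses the adaptor, was at 1.8, 1.5 and 1.09 against 3.87, 4.12 and 2.6 CPM, a rise not called without the replicate number (adjusted p = 0.0697).

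Other paired and lectin receptors fell as well. Cd72, a lectin with an inhibitory tail, measured 29.1, 36.1 and 31.2 CPM in WT empty and 20.1, 19.9 and 20.2 CPM in Het empty. Cd72 had a log2 fold change of -0.68 (SE 0.09, adjusted p = 0.000128). Cd33, a sialic acid-binding lectin, was abundant at 497, 424 and 474 CPM and fell to 401, 323 and 333 CPM. Pirb fell by 1.36 on the log2 scale, though its reads may be divided with near-identical Pira genes. Clec4d fell by 0.32.

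Of 28 costimulatory and SLAM family genes 8 fell and 1 rose (3 and 1 without the replicate number; median -0.14). The falls numbered 4 without WT empty 1, Het empty 2 or Het empty 3 and 5 without Het empty 1, and the rises 3 without Het empty 3. Cd244a, the SLAM receptor 2B4, measured 26.4, 29.5 and 24 CPM in WT empty and 15, 17.1 and 11.4 CPM in Het empty. Cd244a had a log2 fold change of -0.89 (SE 0.09, adjusted p = 5.24e-06). Icosl, the ligand of ICOS, measured 6.18, 7.12 and 10.1 CPM in WT empty and 2.75, 2.83 and 3.57 CPM in Het empty. Icosl had a log2 fold change of -1.33 (SE 0.19, adjusted p = 0.000297). The 1 rise was Cd24a, listed at 0 in all WT empty libraries and at 0.512, 0.634 and 0.62 CPM in Het empty. Cd244a and Icosl were lower in every heterozygous library than in any wild-type one, as was Cd52, a small surface glycoprotein, at 20, 25 and 23.5 against 13, 17 and 11.4 CPM.

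Scavenger receptors and tetraspanins had 4 rises and 2 falls among 27. Tspan2, a tetraspanin, measured 13.8, 14 and 11.6 CPM in WT empty and 22, 23.3 and 17.9 CPM in Het empty. Tspan2 had a log2 fold change of 0.68 (SE 0.08, adjusted p = 4.23e-05). Sorl1, a sorting receptor of the LDL receptor family, measured 139, 146 and 126 CPM in WT empty and 95.7, 84.9 and 80.8 CPM in Het empty. Sorl1 had a log2 fold change of -0.66 (SE 0.07, adjusted p = 8.11e-06). The other rises were of Stab1, which was at 1.69, 1.19 and 2.34 against 3.58, 4.7 and 6.05 CPM, of Scarb1, the receptor for high-density lipoprotein, and of Tspan9, which stayed under 1 CPM in every library. The other fall was of Tspan13, a tetraspanin, at 29.1, 39.3 and 41.4 against 18.6, 19.7 and 28.6 CPM. Calls of Stab1, Scarb1 and Tspan13 were lost without the replicate number (adjusted p = 0.0801, 0.337 and 0.0889), and that of Scarb1 also without WT empty 1 (0.173), WT empty 2 (0.0921), Het empty 2 (0.0825) or Het empty 3 (0.161).

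**Figure D2:**
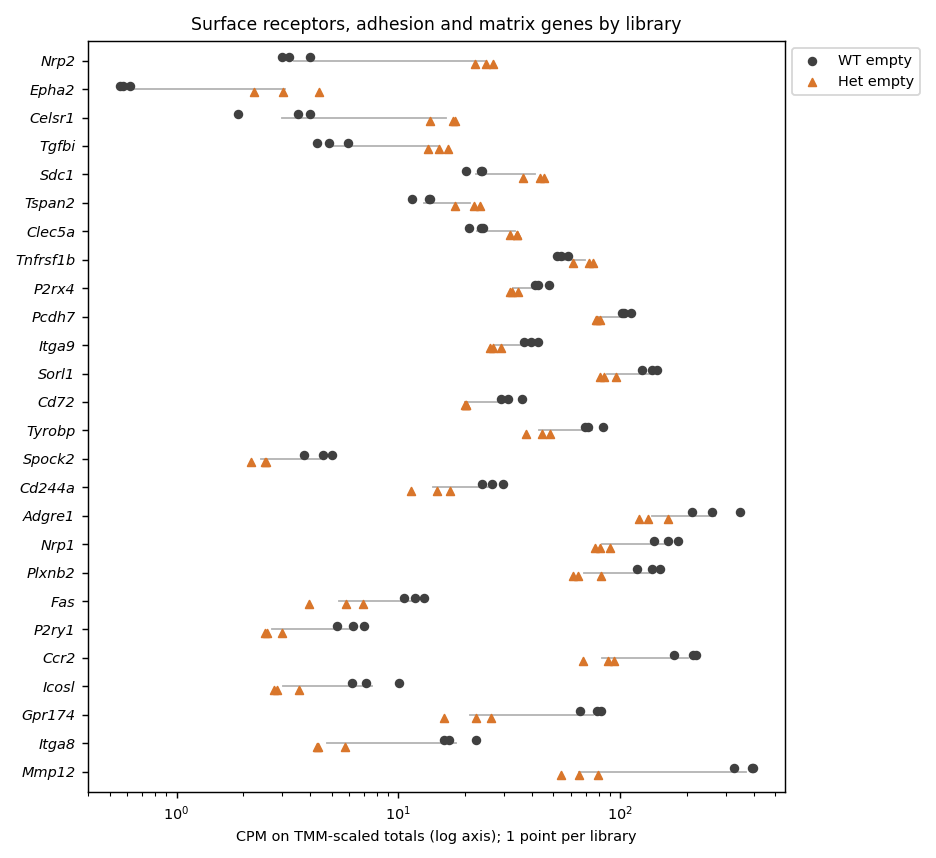
Level of each named receptor, adhesion and matrix gene in each library (x axis, CPM on a log scale), WT empty as dark circles and Het empty as orange triangles, ordered by fold change with grey lines joining the geometric means. For each gene the 3 circles and 3 triangles do not overlap, which the naming rule required; Nrp2 lies at the top and Mmp12 at the bottom.

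Integrins changed in a few chains. Of 33 integrin chains and linker proteins 6 fell and 1 rose (2 and 1 without the replicate number), falls that numbered 3 without WT empty 2, Het empty 2 or Het empty 3; 2 rose without WT empty 2. Itga8, an alpha chain that pairs with beta 1 and binds matrix proteins, measured 16.9, 16.1 and 22.4 CPM in WT empty and 4.32, 4.33 and 5.77 CPM in Het empty. Itga8 had a log2 fold change of -1.94 (SE 0.17, adjusted p = 2.3e-06). Itga9, another partner of beta 1, measured 36.8, 39.6 and 42.8 CPM in WT empty and 26, 26.6 and 29.1 CPM in Het empty. Itga9 had a log2 fold change of -0.54 (SE 0.06, adjusted p = 2.24e-05). Itgb1, the beta 1 chain itself, measured 503, 556 and 526 CPM in WT empty and 564, 595 and 543 CPM in Het empty, with overlapping groups and an adjusted p of 0.324 (95 percent interval of the log2 fold change -0.01 to 0.22). The 1 rise was Itgam, the CD11b chain of myeloid cells, at 4.19, 4.24 and 5.17 against 9.73, 12.6 and 7.72 CPM. Itga2b, the platelet integrin chain, was at 14.6, 14.6 and 14.9 against 3.87, 4.73 and 6.92 CPM, a fall not called without the replicate number (adjusted p = 0.0723).

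Among 49 other adhesion molecules 5 rose and 8 fell (2 and 3 without the replicate number; 5 falls without WT empty 2 or Het empty 2). Celsr1, a cadherin of planar cell polarity, measured 3.99, 3.54 and 1.9 CPM in WT empty and 17.9, 17.6 and 13.9 CPM in Het empty. Celsr1 had a log2 fold change of 2.42 (SE 0.14, adjusted p = 1.61e-08). Adgre1, the macrophage antigen F4/80, measured 210.3, 261 and 348 CPM in WT empty and 122, 134 and 164 CPM in Het empty. Adgre1 had a log2 fold change of -0.95 (SE 0.07, adjusted p = 5.29e-07). The other 7 macrophage markers were each under 1 CPM in both groups. Pcdh7, a protocadherin, measured 112, 104 and 102 CPM in WT empty and 77.9, 78.4 and 81.1 CPM in Het empty. Pcdh7 had a log2 fold change of -0.43 (SE 0.07, adjusted p = 0.000729). Cntnap1, a neurexin-like adhesion protein, fell by 0.63 on the log2 scale. The other rises were Ly6c2, at 0.253, 0.277 and 0 against 5.18, 3.92 and 2.02 CPM, Celsr3, a relative of Celsr1, and Nlgn2, a neuroligin; the last pair lost their calls without the replicate number (adjusted p = 0.0664 and 0.0892). Celsr3 was also not called without WT empty 1 (adjusted p = 0.125), WT empty 2 (0.101), Het empty 1 (0.132) or Het empty 3 (0.0987). Pecam1 (CD31) fell by 0.89 and the semaphorin Sema4a rose by 0.68, calls lost without the replicate number (adjusted p = 0.239 and 0.0673).

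Matrix and secreted proteins moved both ways, 12 up and 15 down of 78 (5 and 3 without the replicate number); 7 rose without WT empty 1, and 9 fell without WT empty 2 or Het empty 1. Mmp12, the elastase of macrophages, measured 326, 398 and 394 CPM in WT empty and 65.5, 79.7 and 53.9 CPM in Het empty, a level 5.61 times lower (log2 fold change -2.49, SE 0.12, adjusted p = 3.23e-09). Tgfbi, a matrix protein induced by TGF-beta, measured 4.3, 5.93 and 4.88 CPM in WT empty and 15.3, 16.8 and 13.6 CPM in Het empty. Tgfbi had a log2 fold change of 1.59 (SE 0.12, adjusted p = 5.6e-07). Sdc1, the proteoglycan syndecan-1, measured 20.2, 23.9 and 23.6 CPM in WT empty and 36.5, 43.5 and 45.2 CPM in Het empty. Sdc1 had a log2 fold change of 0.89 (SE 0.07, adjusted p = 1.11e-06). Mmp12 thus fell while Tgfbi and Sdc1 rose, but other proteoglycans and matrix proteins of the list fell. Spock2, a secreted proteoglycan, measured 4.55, 5.01 and 3.76 CPM in WT empty and 2.53, 2.51 and 2.17 CPM in Het empty. Spock2 had a log2 fold change of -0.88 (SE 0.17, adjusted p = 0.00273). Vcan (versican) and Fn1 (fibronectin), both abundant, fell by 0.51 and 0.52 on the log2 scale, calls lost without the replicate number (adjusted p = 0.364 and 0.0838).

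Neither PU.1 nor C/EBP alpha, the factors best known for myeloid identity, was called. Of 34 factors of the ETS, RUNX, CEBP, IRF and MYB families 1 rose and 2 fell, a called share of 8.82 percent that is near the 9.29 percent of all genes. Spi1, which encodes PU.1, measured 51.1, 55 and 51.7 CPM in WT empty and 58.2, 61.1 and 58.5 CPM in Het empty; the heterozygous libraries were all slightly higher, with an adjusted p of 0.349 (interval of the log2 fold change -0.03 to 0.38). Cebpa, the granulocyte factor C/EBP alpha, measured 50, 53.4 and 41.4 against 57.9, 56.4 and 43.4 CPM with overlapping groups (adjusted p = 0.478, interval -0.05 to 0.29). Mybl1, a relative of MYB, measured 6.52, 6.23 and 7.4 CPM in WT empty and 4, 4.38 and 4.25 CPM in Het empty. Mybl1 had a log2 fold change of -0.67 (SE 0.16, adjusted p = 0.016). Its call was lost without WT empty 3 (adjusted p = 0.0736), Het empty 1 (0.0797) or Het empty 3 (0.0577) and in libraries 1 and 2 alone (0.0923), which left 1 fall in the list. That fall was Etv5, an ETS factor, at 13.8, 14.1 and 18.9 against 7.68, 9.92 and 13.3 CPM, and the 1 rise was Cebpe, a factor of late granulocytes, at 6.24, 5.34 and 2.98 against 9.63, 10.9 and 5.4 CPM, joined by a further rise without Het empty 3. The groups overlapped in Cebpe, and the calls of Etv5 and Cebpe were lost without the replicate number (adjusted p = 0.564 and 0.685).

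Homeobox and basic helix-loop-helix factors had 7 rises and 6 falls among 56 (3 and 2 without the replicate number; 3 falls without WT empty 1). Pbx3, a cofactor of HOX proteins, measured 21.4, 20.9 and 21.3 CPM in WT empty and 15.9, 14.3 and 10.1 CPM in Het empty (log2 fold change -0.68, SE 0.11, adjusted p = 0.000901), and Mycn, a MYC relative, 17.9, 18.1 and 18.9 CPM in WT empty and 10.1, 10.7 and 14.5 CPM in Het empty (log2 fold change -0.65, SE 0.11, adjusted p = 0.000859). Ahr, the aryl hydrocarbon receptor, measured 31.2, 28.4 and 28.6 against 10.4, 11.9 and 17.7 CPM with no overlap, but its fall was not called without the replicate number (adjusted p = 0.109).

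Zinc finger, nuclear receptor and related factors had 9 rises and 6 falls among 90 (6 and 2 without the replicate number; 3 falls without WT empty 2, Het empty 1 or Het empty 2). Batf, which pairs with JUN proteins at AP-1 sites, measured 0.787, 0.748 and 0.753 CPM in WT empty and 7.9, 9.23 and 8.68 CPM in Het empty, 11.2 times higher. Batf had a log2 fold change of 3.49 (SE 0.12, adjusted p = 6.52e-11). Mef2c, a factor of lymphoid and myeloid progenitors, measured 31.8, 34.4 and 44.6 CPM in WT empty and 6.53, 5.68 and 4.5 CPM in Het empty, 6.64 times lower. Mef2c had a log2 fold change of -2.73 (SE 0.15, adjusted p = 1.1e-08). Each group was tight for Batf, and for both genes the groups lay far apart. Ikzf2, the Ikaros relative Helios, measured 74.1, 64.6 and 58.6 CPM in WT empty and 26.2, 24.6 and 27.5 CPM in Het empty. Ikzf2 had a log2 fold change of -1.35 (SE 0.17, adjusted p = 8.81e-05). Atf5, a factor of the stress response, measured 3.79, 5.4 and 7.17 CPM in WT empty and 8.7, 9.02 and 11.9 CPM in Het empty. Atf5 had a log2 fold change of 0.87 (SE 0.13, adjusted p = 0.000323).

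Smaller rises included Nr3c1, the glucocorticoid receptor, at 70.5, 72.1 and 68.8 against 102, 98.3 and 78.6 CPM, and Klf3 and Tcf7l2, which were under 1 CPM in all WT empty libraries and rose by 2.01 and 1.94 on the log2 scale. Rora, an orphan nuclear receptor, fell by 0.57, a call lost without the replicate number (adjusted p = 0.186). The promoter of Batf is shown because this gene had the largest rise among the named transcription factors; it lies at chr12:85686470-85686719 on the plus strand, with the same marks as above.
Batf: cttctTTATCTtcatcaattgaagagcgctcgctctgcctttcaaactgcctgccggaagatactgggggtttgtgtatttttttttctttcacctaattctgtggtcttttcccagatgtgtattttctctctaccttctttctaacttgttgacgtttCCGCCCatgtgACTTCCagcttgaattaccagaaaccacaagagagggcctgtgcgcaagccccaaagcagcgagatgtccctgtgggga
It held 1 GC box, 1 ETS core, 1 GATA sequence and 7 CpG; an ETS core occurred in 19.7 percent of all windows.

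JAK kinases and STAT factors carry the signal of cytokine receptors. Of 37 JAK, STAT and SOCS genes 2 rose and 1 fell, a called share of 8.11 percent beside 9.29 percent of all genes, and none was called without the replicate number. The rises were Stat4, at 6.63, 7.04 and 9.21 against 13.8, 15.8 and 25.1 CPM, and the kinase gene Pim1, at 34.2, 38.5 and 56 against 52.3, 59.4 and 87.1 CPM (adjusted p = 0.187 and 0.249 without the replicate number). For Pim1 the groups overlapped, since library 3 was the highest of both. The 1 fall was Bcl2, the inhibitor of cell death, at 30.3, 27 and 26.9 against 26.1, 23.6 and 20 CPM (adjusted p = 0.204 without the replicate number), and was lost without WT empty 1 (0.147), WT empty 3 (0.0949), Het empty 2 (0.0917) or Het empty 3 (0.19).

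In the MAPK pathway 4 of 83 genes rose and 8 fell (2 and 1 without the replicate number). The called share was 14.5 percent beside 9.29 percent of all genes, and the rises were near the share of all genes (4.54 percent). The falls were 4 without WT empty 1 or Het empty 2 and 5 without WT empty 2 or Het empty 3, and the rises 2 without WT empty 1 or Het empty 2. Rasal3, which switches off Ras in blood cells, measured 29.9, 27.6 and 27.4 CPM in WT empty and 18.1, 18.2 and 18.2 CPM in Het empty. Rasal3 had a log2 fold change of -0.64 (SE 0.08, adjusted p = 6.44e-05). The rises were Grb10 and Dusp5, at 53.6, 68.9 and 82.2 against 81.5, 101 and 127 CPM and 6.94, 7.45 and 10.6 against 8.48, 10.1 and 15 CPM with overlapping groups, and Map4k3 and Rps6ka2, which were under 1 CPM in all 6 libraries. Without the replicate number Grb10 and Dusp5 lost their calls (adjusted p = 0.64 and 0.798). Dusp5 was not called with any 1 of the 6 libraries left out (adjusted p 0.0563 to 0.202), nor Grb10 without WT empty 1 (0.0886), WT empty 3 (0.0927) or Het empty 2 (0.127). Gab1, a docking protein that activates the pathway, fell by 0.46 on the log2 scale (adjusted p = 0.0567 without the replicate number).

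Of 63 genes of the PI3K and mTOR pathways and inositol lipids 6 rose and 8 fell (4 and 2 without the replicate number; 3 falls without WT empty 1, WT empty 2 or Het empty 2). Inpp4a, a phosphatase that removes a phosphate from inositol lipids, measured 1.1, 0.498 and 0.727 CPM in WT empty and 2.98, 2.08 and 2.36 CPM in Het empty. Inpp4a had a log2 fold change of 1.69 (SE 0.22, adjusted p = 0.000111). Inpp5a, a phosphatase of inositol phosphates, measured 0.872, 0.748 and 1.22 CPM in WT empty and 1.95, 3.14 and 2.79 CPM in Het empty. Inpp5a had a log2 fold change of 1.46 (SE 0.24, adjusted p = 0.00101). Pik3c2b, a class II lipid kinase, measured 11.2, 10.8 and 9.24 CPM in WT empty and 6.75, 4.87 and 5.64 CPM in Het empty. Pik3c2b had a log2 fold change of -0.86 (SE 0.12, adjusted p = 0.000287). In these genes 2 phosphatases rose and a kinase fell, the phosphatases from about 1 CPM. Inppl1, which encodes the phosphatase SHIP2, rose by 0.28 on the log2 scale, and the phospholipase Pld1 by 1.66. Trib2, a pseudokinase that restrains C/EBP alpha protein, measured 7.03, 11.2 and 7.79 CPM in WT empty and 3.87, 3.75 and 4.65 CPM in Het empty. Trib2 had a log2 fold change of -1.09 (SE 0.17, adjusted p = 0.000667).

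Tyrosine kinases and phosphatases had 11 falls and 4 rises among 54 (3 and 2 without the replicate number); 7 fell without WT empty 2 or Het empty 1, and 2 rose without WT empty 1, WT empty 2 or Het empty 1. Ptprc, the phosphatase CD45 found on all nucleated blood cells, measured 172, 185 and 182 CPM in WT empty and 289, 293 and 292 CPM in Het empty. Ptprc had a log2 fold change of 0.70 (SE 0.06, adjusted p = 1e-06). The 3 heterozygous libraries differed by little among themselves and lay well above the wild-type ones. Bmx, a kinase of the TEC family, measured 18.2, 20.7 and 16.4 CPM in WT empty and 5.02, 6.49 and 4.03 CPM in Het empty. Bmx had a log2 fold change of -1.85 (SE 0.13, adjusted p = 1.32e-07). Lcp2, the adaptor SLP-76, measured 41.9, 48.3 and 54.2 CPM in WT empty and 23.2, 22.3 and 32.1 CPM in Het empty. Lcp2 had a log2 fold change of -0.91 (SE 0.09, adjusted p = 4.54e-06). The other rises were Ptpn21, at 0.197, 0.194 and 0.026 against 1.89, 1.44 and 2.42 CPM, Ptprm and Sh2d1b1; the last pair lost their calls without the replicate number (adjusted p = 0.0565 and 0.0966). Ptprm was also not called without WT empty 1 (adjusted p = 0.0524), WT empty 2 (0.0554) or Het empty 1 (0.0563), and Sh2d1b1 was called only when Het empty 3 was the library left out (adjusted p 0.0749 to 0.266 without the others).

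Regulators of small GTPases gave 12 rises and 8 falls among 127 (7 and 3 without the replicate number). Arhgap26, which switches off RhoA and Cdc42, measured 4.33, 3.9 and 3.38 CPM in WT empty and 32.3, 30.4 and 16.4 CPM in Het empty, 6.6 times higher. Arhgap26 had a log2 fold change of 2.72 (SE 0.12, adjusted p = 7.57e-10). Het empty 3 was well below the other heterozygous libraries and still above every wild-type library. The GTPases Rhou, Rnd1 and Rhog rose by 1.31, 0.70 and 0.37 on the log2 scale. Rgs12, which shortens G protein signals, measured 29.8, 31.9 and 27.5 CPM in WT empty and 20, 21.8 and 20.5 CPM in Het empty (log2 fold change -0.52, SE 0.08, adjusted p = 0.000736), and Grk3, a kinase that turns off G protein-coupled receptors, 26.8, 24.5 and 20.1 CPM in WT empty and 16.6, 15.4 and 13.6 CPM in Het empty (log2 fold change -0.64, SE 0.12, adjusted p = 0.00212). Both groups were separate in each gene. Arhgap24 fell by 0.67, a call lost without Het empty 2 (adjusted p = 0.0693).

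In the Wnt, Notch and TGF-beta pathways 10 of 66 genes rose and 2 fell (6 and 0 without the replicate number). Rises numbered 6 without Het empty 2; falls numbered 0 without WT empty 1 or Het empty 3, 1 without WT empty 2 or Het empty 2, and 4 without WT empty 3. Lgr4, a receptor for R-spondins that amplifies Wnt signals, measured 2.28, 2.44 and 4.1 CPM in WT empty and 10.4, 12 and 9.33 CPM in Het empty. Lgr4 had a log2 fold change of 1.84 (SE 0.21, adjusted p = 3.33e-05). Fzd7, a Wnt receptor, was under 1 CPM in each WT empty library and at 5.7, 5.28 and 5.58 CPM in Het empty. Bambi, a decoy receptor of the TGF-beta family, rose by 1.77 on the log2 scale from under 1 CPM. The falls were Notch1, at 100.2, 97.9 and 106 against 80.8, 76.9 and 69.1 CPM, and Fzd5, another Wnt receptor, at 17.3, 17.4 and 18.5 against 10, 12.2 and 15.7 CPM, so Fzd7 and Fzd5 moved in opposite directions. The calls of Notch1 and Fzd5 were lost without the replicate number (adjusted p = 0.0662 and 0.397). Notch1 was also not called without WT empty 1 (adjusted p = 0.083) or Het empty 3 (0.0844), nor Fzd5 without WT empty 1 (0.137), WT empty 2 (0.192), Het empty 1 (0.21), Het empty 2 (0.0512) or Het empty 3 (0.0711).

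Calcium and ion-handling genes had 18 falls and 9 rises among 97 (3 and 6 without the replicate number). The falls were fewer without 5 of the libraries: 9 without WT empty 1, 8 without WT empty 2, 9 without Het empty 1, 7 without Het empty 2 and 11 without Het empty 3. Prkcq, protein kinase C theta, measured 22.5, 29.5 and 29.7 CPM in WT empty and 6.21, 7.09 and 5.46 CPM in Het empty. Prkcq had a log2 fold change of -2.12 (SE 0.14, adjusted p = 8.03e-08). S100a4, a calcium-binding protein of motile cells, measured 44.2, 47.9 and 57 CPM in WT empty and 26.4, 25.1 and 31.3 CPM in Het empty. S100a4 had a log2 fold change of -0.85 (SE 0.07, adjusted p = 2.16e-06). The groups did not overlap in either. Slc12a2, a sodium, potassium and chloride cotransporter, measured 1.32, 1.39 and 0.675 CPM in WT empty and 3.07, 3.32 and 3.6 CPM in Het empty (log2 fold change 1.55, SE 0.28, adjusted p = 0.00186), and Ano10, of the anoctamin family of channels and scramblases, 16.9, 19.5 and 16.3 CPM in WT empty and 26, 26.8 and 20.2 CPM in Het empty (log2 fold change 0.47, SE 0.09, adjusted p = 0.00395). Kcnk13, a potassium channel, fell by 1.65 on the log2 scale, and Anxa1, the phospholipid-binding annexin A1, by 0.38 (adjusted p = 0.443 for Anxa1 without the replicate number).

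**Figure D3:**
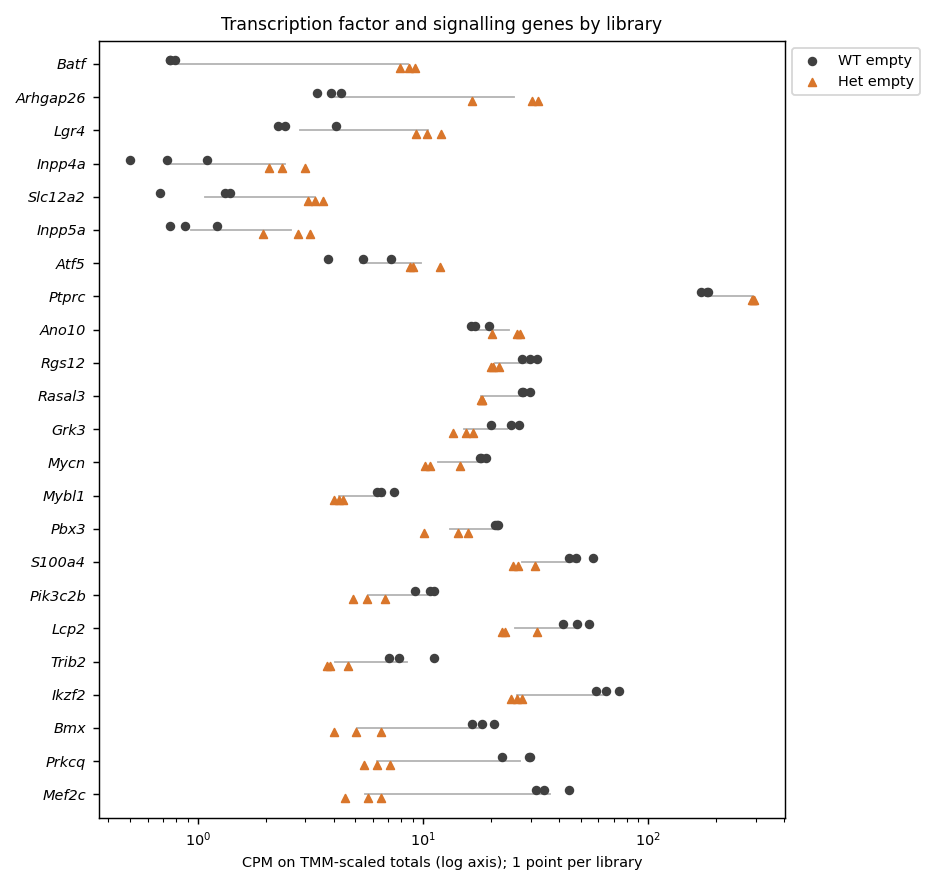
Level of each named transcription factor and signalling gene in each library (x axis, CPM on a log scale), WT empty as dark circles and Het empty as orange triangles, ordered by fold change with grey lines joining the geometric means. Batf rises from under 1 to about 8 or 9 CPM at the top, and Mef2c, with every Het empty library under every WT empty library, lies at the bottom.

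Enzymes of sphingosine 1-phosphate and of leukotrienes were among the changes in lipid metabolism. Of 117 genes of eicosanoid and phospholipid metabolism 13 rose and 10 fell (5 and 4 without the replicate number; 5 falls without WT empty 2 or Het empty 2). Sgpp1, a phosphatase that removes the phosphate of sphingosine 1-phosphate, measured 6.66, 7.59 and 4.23 CPM in WT empty and 23.7, 24.9 and 16.8 CPM in Het empty. Sgpp1 had a log2 fold change of 1.84 (SE 0.09, adjusted p = 2.55e-09). Sgpl1, the lyase that cleaves this lipid irreversibly, measured 31.7, 36 and 30.7 CPM in WT empty and 44.5, 47 and 38.8 CPM in Het empty. Sgpl1 had a log2 fold change of 0.41 (SE 0.06, adjusted p = 0.000404). These 2 enzymes that consume sphingosine 1-phosphate were higher. S1pr1, a receptor gene for this lipid described above and picked after its values were seen, was lower. Other enzymes and receptors of this lipid are not given here.

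Alox5, the 5-lipoxygenase that starts leukotriene synthesis, measured 7.22, 7.87 and 9.79 CPM in WT empty and 3.04, 2.83 and 0.868 CPM in Het empty. Alox5 had a log2 fold change of -2.01 (SE 0.30, adjusted p = 0.000453). Cyp4f18, which inactivates leukotriene B4, measured 31.7, 35.7 and 30.2 CPM in WT empty and 17.2, 17.9 and 14.2 CPM in Het empty. Cyp4f18 had a log2 fold change of -0.98 (SE 0.10, adjusted p = 1.53e-05). An enzyme that makes leukotrienes and one that removes them both fell. Hpgds, which makes prostaglandin D2 in mast cells and related cells, was at 45.5, 44.9 and 56.6 against 22, 22.5 and 34.7 CPM beside the lower mast cell marker sum, with a call lost without the replicate number (adjusted p = 0.299). Ptgs2, the inducible cyclooxygenase, measured 84.7, 90.5 and 230.0 against 132, 138 and 298 CPM; library 3 was the highest in both groups and the groups overlapped (adjusted p = 0.918 without the replicate number). Dgkg, a diacylglycerol kinase, rose by 0.40 on the log2 scale and Etnk1, an ethanolamine kinase, fell by 0.43.

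Of 83 genes of amino acid and one-carbon metabolism 20 rose and 2 fell, with a median log2 fold change of 0.09. Without the replicate number 4 rose and 1 fell, and 11 rose without WT empty 1 and 13 without Het empty 3. Mthfd2, the mitochondrial folate enzyme, measured 107, 120.3 and 133 CPM in WT empty and 151, 159.9 and 183 CPM in Het empty. Mthfd2 had a log2 fold change of 0.45 (SE 0.08, adjusted p = 0.0021). Aldh3b1, an aldehyde dehydrogenase, measured 5.51, 6.45 and 5.92 CPM in WT empty and 8.25, 9.28 and 9.37 CPM in Het empty. Aldh3b1 had a log2 fold change of 0.59 (SE 0.11, adjusted p = 0.00195). Asns, asparagine synthetase, measured 98.8, 126 and 172 CPM in WT empty and 164, 191 and 284 CPM in Het empty. Library 3 was the highest of its group for Asns and Mthfd2, and for Asns the groups overlapped although each heterozygous library was above the wild-type library of the same number.

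The largest rise of the list was Aldh1l2, a mitochondrial folate enzyme, which was at 0.0281, 0.0554 and 0.285 CPM in WT empty and 13.1, 18.3 and 37.9 CPM in Het empty. Cth, which makes cysteine, measured 0.843, 0.886 and 2.26 against 3.71, 3.86 and 11.9 CPM, and Slc7a11, the cystine transporter, 89.7, 87.3 and 152 against 119, 119.8 and 179 CPM. For Asns, Cth and Slc7a11 the call was lost without the replicate number (adjusted p = 0.321, 0.154 and 0.82). Smox, which oxidises the polyamine spermine, went the other way, at 44.4, 53.1 and 68.1 against 13.8, 16.8 and 27.8 CPM (adjusted p = 0.141 without the replicate number). Slc7a8, an exchanger of neutral amino acids, measured 3.94, 3.68 and 4.8 CPM in WT empty and 2.72, 2.16 and 2.36 CPM in Het empty (log2 fold change -0.78, SE 0.16, adjusted p = 0.00507); its call was lost in libraries 1 and 2 alone (adjusted p = 0.0865).

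Nucleotide and redox genes had 10 rises and 4 falls among 113 (1 and 3 without the replicate number). The called share was 12.4 percent beside 9.29 percent of all genes, and the falls were under the share of all genes (4.75 percent). Rises numbered 6 without WT empty 1, Het empty 1 or Het empty 2, and 9 genes fell without WT empty 3. Pgd, an NADPH-making enzyme of the pentose phosphate pathway, measured 191, 205 and 199 CPM in WT empty and 272, 269 and 257 CPM in Het empty. Pgd had a log2 fold change of 0.42 (SE 0.06, adjusted p = 0.000297). Nqo1, a quinone reductase, measured 28.7, 38.7 and 20.9 CPM in WT empty and 6.82, 6.34 and 8.09 CPM in Het empty, 4.18 times lower. Nqo1 had a log2 fold change of -2.06 (SE 0.22, adjusted p = 1.72e-05). Gsr, glutathione reductase, measured 231, 235 and 218 against 332, 346 and 259 CPM and lost its call without the replicate number (adjusted p = 0.407). The other falls of the list were of Ncf4, Nt5e and Pnp; Ncf4, a subunit of the phagocyte oxidase, measured 106, 127 and 104 against 97.3, 103 and 86.5 CPM (adjusted p = 0.407 without the replicate number and 0.0566 without WT empty 2). Nt5e, the surface enzyme CD73 that makes adenosine from AMP, measured 19.3, 15.6 and 15.1 CPM in WT empty and 5.63, 5.22 and 6.08 CPM in Het empty (log2 fold change -1.57, SE 0.15, adjusted p = 5.85e-06), and Pnp, which breaks down purine nucleosides, fell by 0.37 on the log2 scale.

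The respiratory chain and citric acid cycle had few calls: of 107 nuclear-encoded genes 5 rose and none fell, 4.67 percent called against 9.29 percent of all genes, with none called without the replicate number. Their median log2 fold change was 0.07, and 1 rose without WT empty 1 and 3 without WT empty 2, Het empty 1 or Het empty 2. The 5 rises were Pck2, which makes phosphoenolpyruvate, at 104, 129 and 153 against 137, 152 and 191 CPM, Pcx, pyruvate carboxylase, at 5.17, 8.22 and 11.4 against 9.85, 12.7 and 20.6 CPM, the ADP/ATP carrier Slc25a4, Sucla2, and Ogdhl, which was under 1 CPM throughout. For Pck2 and Pcx the groups overlapped, and without the replicate number their adjusted p was 0.736 and 0.723. Leaving out 1 library lost the call of Pcx (WT empty 1, WT empty 3 or Het empty 2; adjusted p 0.0748 to 0.0843) and of Slc25a4 (WT empty 1 or Het empty 3; 0.0501 and 0.0597). It also lost that of Ogdhl (WT empty 1, WT empty 2, Het empty 1 or Het empty 3; 0.0639 to 0.0812) and of Sucla2 (all but WT empty 3; 0.0615 to 0.192).

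Glycan and lysosome enzymes had 5 rises and 13 falls among 110 (3 and 5 without the replicate number). The called share was 16.4 percent beside 9.29 percent of all genes, and the rises were near the share of all genes (4.54 percent). Falls numbered 8 without WT empty 2, Het empty 2 or Het empty 3. Rises numbered 3 without WT empty 1, WT empty 2, Het empty 1 or Het empty 2. Ctsz, the lysosomal protease cathepsin Z, measured 92, 118 and 105 CPM in WT empty and 191, 218 and 192 CPM in Het empty. Ctsz had a log2 fold change of 0.93 (SE 0.08, adjusted p = 2.05e-06). Ctsl, cathepsin L, measured 3.68, 3.24 and 4.67 CPM in WT empty and 10.3, 13.5 and 11.6 CPM in Het empty. Ctsl had a log2 fold change of 1.63 (SE 0.15, adjusted p = 2.7e-06). Both cathepsins were higher in every heterozygous library. The other rises were Ids, a lysosomal sulfatase, at 0.141, 0.0554 and 0.104 against 0.768, 0.519 and 1.21 CPM, Xylt2, which starts glycosaminoglycan chains, at 6.33, 6.51 and 7.14 against 8.09, 8.19 and 9.21 CPM (adjusted p = 0.168 without the replicate number), and Galnt10, under 1 CPM in all 6 libraries. With any 1 library left out neither Xylt2 (adjusted p 0.0779 to 0.119) nor Galnt10 (0.0682 to 0.134) was called. Galnt2, which starts O-linked glycans, measured 43.4, 48.4 and 41.1 CPM in WT empty and 29, 26.6 and 26.4 CPM in Het empty (log2 fold change -0.69, SE 0.09, adjusted p = 0.000159), and B4galnt4, which caps glycans, 34.8, 33.9 and 30.9 CPM in WT empty and 18.5, 20.6 and 17.9 CPM in Het empty (log2 fold change -0.81, SE 0.11, adjusted p = 0.000124). Csgalnact1 and Ndst2, which act in chondroitin and heparan sulfate synthesis, fell by 0.39 and 0.49 on the log2 scale.

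Among 58 genes of iron, metal and vitamin handling 11 rose and none fell, and 4 rose without the replicate number. Without WT empty 3 there was 1 fall. Called or not, 38 of the 58 had a log2 fold change above 0, with a median of 0.05. Trf, transferrin, was not in this list and fell, as given below. Alas1, which starts heme synthesis, measured 126, 128 and 159 CPM in WT empty and 213, 261 and 218 CPM in Het empty. Alas1 had a log2 fold change of 0.74 (SE 0.12, adjusted p = 0.000601). Slc23a2, a vitamin C transporter, measured 12.9, 12.1 and 16.4 CPM in WT empty and 23.5, 26 and 25.6 CPM in Het empty. Slc23a2 had a log2 fold change of 0.87 (SE 0.09, adjusted p = 8.51e-06). Mt1 and Mt2, metallothioneins that bind zinc and copper, measured 131, 123 and 191 against 185, 255 and 408 CPM and 11.3, 13.1 and 25.1 against 29.9, 41.3 and 72.4 CPM. Library 3 was the highest of its group in both metallothioneins, and the calls were lost without the replicate number (adjusted p = 0.173 and 0.113).

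**Figure D4:**
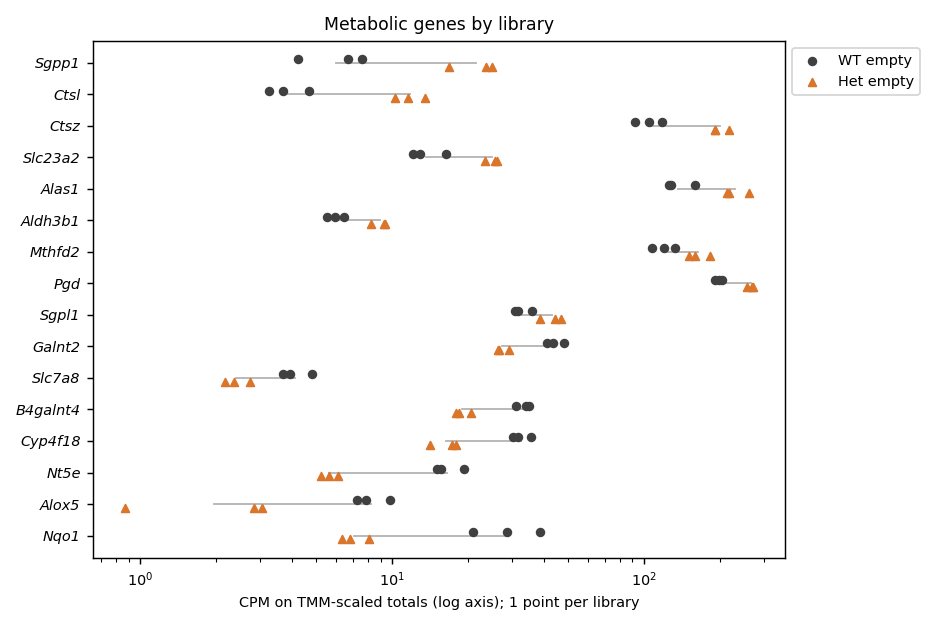
Level of each named metabolic gene in each library (x axis, CPM on a log scale), WT empty as dark circles and Het empty as orange triangles, ordered by fold change with grey lines joining the geometric means. Sgpp1 and Ctsl lie at the top, with all Het empty libraries higher, and Alox5 and Nqo1 at the bottom.

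Outside these lists the largest rises among genes above 1 CPM in both lines and 20 CPM in the higher one were in Tdrkh, Reep1, Clstn1, Ak4, Ctnna1 and Nab1. Tdrkh, a Tudor protein of small RNA pathways in germ cells, measured 2.9, 2.88 and 2.26 CPM in WT empty and 50.9, 43.6 and 47.4 CPM in Het empty, 17.7 times higher. Tdrkh had a log2 fold change of 4.15 (SE 0.10, adjusted p = 1.72e-12). Clstn1, a cadherin-like protein of membrane transport, measured 5.06, 5.26 and 6.18 CPM in WT empty and 40.6, 41.7 and 51.6 CPM in Het empty. Clstn1 had a log2 fold change of 3.02 (SE 0.06, adjusted p = 4.46e-13). Reep1, which shapes the endoplasmic reticulum, was at 1.38, 1.16 and 2.23 against 16.5, 21.5 and 30.5 CPM, and Ak4, a mitochondrial adenylate kinase, at 6.75, 6.92 and 11.1 against 49.7, 54.9 and 76.5 CPM (log2 3.88 and 2.88). In these 4 genes every heterozygous library lay far above every wild-type one. Ctnna1, alpha-catenin, which ties cadherins to actin, was at 3.63, 3.74 and 3.92 against 16.4, 20.2 and 24.1 CPM, and Nab1, a corepressor of EGR factors, at 20, 20.5 and 20.4 against 71.6, 75.1 and 95 CPM (log2 2.42 and 1.98).

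The largest falls by the same limits were in Mzb1, Chd3, Ppm1l, Mzf1, Trf and Ccnd1. Mzb1, a chaperone of the endoplasmic reticulum known from B cells and plasmacytoid dendritic cells, measured 181, 228 and 199.7 CPM in WT empty and 14.7, 15.7 and 16.3 CPM in Het empty, 13 times lower. Mzb1 had a log2 fold change of -3.70 (SE 0.08, adjusted p = 4.51e-13). Ccnd1, cyclin D1, which drives entry into the cell cycle, measured 42.5, 44.1 and 33.8 CPM in WT empty and 11.3, 12 and 8.59 CPM in Het empty. Ccnd1 had a log2 fold change of -1.92 (SE 0.08, adjusted p = 2.69e-10). Chd3, a chromatin remodeller of the NuRD complex, was at 21.2, 24.3 and 24.8 against 3.77, 3.6 and 4.37 CPM and Mzf1, a myeloid zinc finger factor, at 30.6, 25.4 and 31.7 against 5.34, 5.74 and 7.44 CPM (log2 -2.60 and -2.27). None of these groups overlapped, which the choice of genes outside the lists also required. Trf, transferrin, was at 25.5, 33.1 and 38.1 against 4.93, 6.83 and 8.87 CPM, and Ppm1l, a phosphatase of stress kinases, at 49.1, 55.3 and 79.3 against 7.84, 8.91 and 17.2 CPM with library 3 the highest in each group (log2 -2.25 and -2.49).

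The heterozygous line was also sequenced with 3 DDX41 vectors, and those libraries, which entered the contrast only through the shared estimates of spread and replicate number, are set beside it. They share the WT empty libraries, so the differences from them are given side by side only. Counts assigned to Ddx41 averaged 33.1 ± 3.11, 33.3 ± 4.86 and 32.1 ± 2.81 CPM for the vectors with DDX41, G173R and R525H in that order (SD, n = 3), beside 30.3 ± 2.34 in Het empty and 59.3 ± 3.94 in WT empty. In these counts every library of the vector groups lay below every WT empty library, and no added DDX41 is seen; whether a transcript of the vector would be counted as Ddx41 is not given in the sources used here. Mzb1 had means of 17.4 ± 1, 17.6 ± 0.408 and 15.6 ± 0.782 CPM in these vector groups, in the same order, beside 15.6 ± 0.808 in Het empty and 203 ± 23.6 in WT empty. Mef2c had 6.62 ± 0.131, 6.24 ± 0.0864 and 6.03 ± 0.662 CPM beside 5.57 ± 1.02 and 37 ± 6.76, Batf 9.31 ± 0.233, 9.28 ± 0.418 and 9.1 ± 0.689 beside 8.6 ± 0.665 and 0.763 ± 0.0215, and Nrp2 20 ± 2.83, 22.2 ± 2.97 and 23.6 ± 2.67 beside 24.6 ± 2.25 and 3.4 ± 0.528. For these genes the 4 heterozygous groups lay close together and apart from the wild-type line. Ccr2 had 69.4 ± 15.1, 81.4 ± 17.9 and 77.9 ± 21.5 CPM beside 83.7 ± 13.6 and 203 ± 24.1. Sdc1 differed more: its log2 fold changes against WT empty were 1.01, 0.92 and 0.36 in the 3 vector groups, in that order, beside 0.89 in Het empty. For Galnt2 they were -0.30, -0.15 and -0.35 beside -0.69, with means of 35.9 ± 0.438, 39.9 ± 1.43 and 34.9 ± 6.93 CPM beside 27.4 ± 1.43 and 44.3 ± 3.71, so that its level in Het empty was the lowest of the 5 groups. For Mmp12 they were -2.10, -2.31 and -2.96 beside -2.49, and for P2ry1 -1.29, -1.23 and -1.96 beside -1.19. Differences between the heterozygous groups were not tested here.

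**Figure D5:**
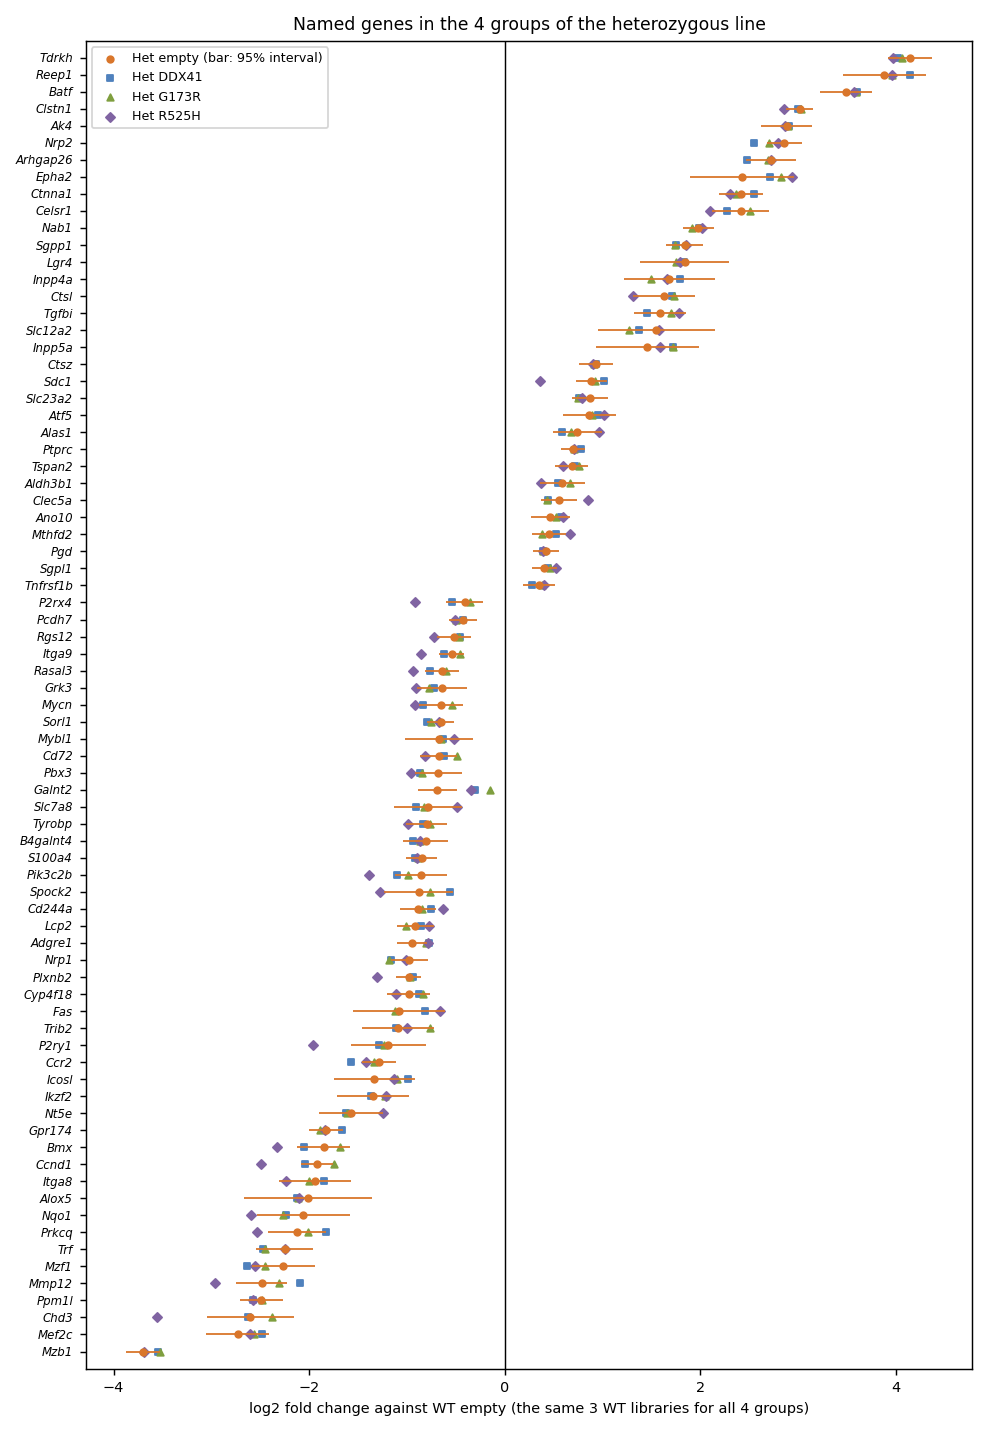
Log2 fold change against WT empty (x axis) of the named genes in Het empty (orange circles with 95 percent intervals) and in the 3 vector groups of the heterozygous line (blue squares, green triangles and violet diamonds). All 4 groups are set against the same 3 WT empty libraries, so the points of a gene are not independent; for Galnt2 the 3 vector groups lie nearer to 0 than Het empty does.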

How the data were processed

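For every sample the authors deposited a gene table (55359 genes) from RSEM, per the submitters' processing notes. The sources used here give no RSEM version, aligner, genome build or strand setting of the counting. The expected count, so named per the file headers, divides reads shared by several genes among them, and 6.26 to 6.92 percent of the genes of a library had a fractional value. The TPM and FPKM columns deposited by the authors were not used.

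Expected counts were rounded and tested with edgeR 4.0.16 (quasi-likelihood) in R 4.3.3. Of these genes 14548 passed filterByExpr, libraries were scaled by TMM (factors 0.969 to 1.06), and 1 model with group and replicate number as terms was fitted to all 15 libraries (8 residual degrees of freedom, common dispersion 0.00965). The contrast was Het empty minus WT empty, with Benjamini-Hochberg adjustment over all genes tested and a call at an adjusted p under 0.05. CPM levels use the TMM-scaled totals. Each SE was obtained by dividing the log2 fold change by the root of its F statistic, sign dropped. The numbers came from the sample titles. After subtracting group means, WT empty and Het empty libraries with the same number correlated over genes (0.49, 0.453 and 0.358 for numbers 1, 2 and 3). The replicate number was in the model by the definition of this comparison, before these values were computed, and they did not decide its use. All differently numbered pairs had negative correlations. Subtracting group means forces this on average once same-number pairs correlate positively, so the negative values add no evidence of pairing. The procedure was tested on simulated data with known changes, part of which it missed at every fold size; the share it had to recover was lowered after that was seen.

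The 26 lists of receptors, adhesion, transcription factors, signalling and metabolism and the 9 marker lists were chosen with earlier results of these data known. Named genes are up to 2 rises and 2 falls per list with the smallest p, called with and without the replicate term, with non-overlapping libraries, at least 0.5 CPM in both groups and 2 CPM in the higher one; outside the lists, the 6 largest rises and falls with at least 1 and 20 CPM. Genes already prominent in the earlier results were passed over. Further members were named after their values were seen, in part because their calls held under most settings; they are those given without an adjusted p, those whose call was lost without the replicate term, and all called members of lists with 5 or fewer calls in a direction. A few of the genes chosen are not reported here. Listed symbols not in the tables were matched through GENCODE M21 identifiers, and 8 had no gene. Promoter sequences are from RefSeq (GRCm38.p6). DESeq2 1.42.0 and other settings were alternatives.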

Additional observations from a re-analysis of the deposited data

How the results depend on the processing

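The count of changed genes was 1352 and depended most on the replicate number: with no replicate block it was 532, of which 277 rose and 255 fell, and all 532 were also called with it. It was 1657 with the 6 empty-vector libraries alone, 1569 in DESeq2, 1360 with RLE scaling, 1501 without a filter on low counts and 1203 in libraries 1 and 2 alone. Leaving out 1 library gave 980 to 1302 genes, 493 to 634 rises and 476 to 675 falls. The share of rises among called genes ran from 48.2 to 56.1 percent over these settings, and the median log2 fold change of all genes moved by less than 0.02. The fall of Ddx41 ran from -1.004 to -0.918 on the log2 scale and was called in every setting run. Of 79 genes chosen by rule, all kept their direction in every setting. The rule required non-overlapping libraries and picked by p or fold change in these same data. Kept directions and most kept calls therefore largely follow from the choice and are not independent evidence. All were called without the replicate number, which the rule also required. All were called with the 6 libraries alone, in DESeq2, with RLE scaling and without the filter, and 77 in libraries 1 and 2 alone. Leaving out 1 library lost the call of Tnfrsf1b, P2rx4 or Mybl1. Among genes named after their values were seen such losses were frequent and are given beside them; Other settings also lost some of them: Xylt2, Bcl2, Galnt10 and Sucla2 without the filter on low counts (adjusted p 0.0675 to 0.111), Xylt2 with the 6 libraries alone (0.0733), Galnt10 in DESeq2 (0.0813), and Bcl2, Map4k3, Dusp5, Celsr3, Galnt10, Xylt2, Ogdhl, Ncf4 and Sh2d1b1 in libraries 1 and 2 alone (0.0575 to 0.185). Genes that share reads with near-identical copies, and overlapping genes, are uncertain, since the strand setting of the counting is not given. Changes in genes under about 1 CPM rest on few counts.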
